A study of Mus musculus with 21 samples.

Results

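Mouse striatum that received an adeno-associated virus (AAV, which delivers a gene and does not replicate on its own) labelled Cas9 was compared with striatum that received an AAV labelled GFP. The comparison used the 4 Cas9 libraries and the 4 GFP libraries of the second set, which holds 12 of the 21 RNA sequencing libraries of the study. The libraries were chosen by their titles, which number the second set from GFP to Cas9 to GCas9, and every gene in the table was compared. All animals were wild-type mice, and tissue was taken 3 weeks after the injection. Their age is 3 months in the growth protocol and 3 weeks in another label, and strain, sex, promoter, guide RNA and viral dose are not given in the sources used here. The 4 GCas9 libraries of the second set entered the fit as the third group and are given beside the main values. The labels give GCas9 only as a name, and work on this nuclease describes it as Cas9 joined to part of Geminin, so that it is broken down sooner.

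Cas9 is a bacterial nuclease that cuts DNA where a guide RNA pairs with it, and a cell joins the cut ends through its double-strand break repair pathways. In neurons carrying an AAV genome the nuclease can be made for a long time, because the cells do not divide and the viral DNA persists. GFP is a fluorescent protein commonly used as the control cargo, so a GFP virus carries the injection, the capsid and a foreign protein without a nuclease.

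The study's title frames Cas9 in terms of neuronal toxicity, and the question here was which striatal transcripts differed between Cas9 and GFP virus. Values are normalized read counts, and differences are log2 differences between group means of log2(normalized count + 1), Cas9 minus GFP, with the standard error (SE) from limma, a linear model with moderated variance. P-values were adjusted over all genes tested by the method of Benjamini and Hochberg, with a threshold of 0.05. Nothing in the labels says that the libraries are separate animals, so p-values measure the spread between these libraries.

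The Cas9 libraries held 6.09 to 7.69 M (mega) gene reads and the GFP libraries 7.89 to 9.75 M, without overlap (exact permutation test, two-sided, p = 0.02857, the smallest that 4 against 4 can give). Genes with at least 1 read numbered 20037 to 20322 with Cas9 and 20497 to 20796 with GFP. Mitochondrial transcripts made up 1.72 ± 0.16% of reads with Cas9 and 1.42 ± 0.30% with GFP (SD, n = 4 each, exact permutation p = 0.143). Xist, the RNA of the inactive X chromosome, was at 824 to 1159 in GFP replicates 3 and 4 and Cas9 replicates 2, 3 and 4. Xist was at 3.39 to 12.6 in GFP replicates 1 and 2 and Cas9 replicate 1, where the Y-linked Ddx3y was at 534 to 563. The classes were thus 2 and 2 with GFP but 3 and 1 with Cas9. Markers of medium spiny neurons, the main striatal neuron, were present in every library, with Ppp1r1b at 21660 to 28430. The cortical neuron marker Slc17a7 was at 20.9 to 74.4 in the 8 libraries and at 68.2 to 804 in the GCas9 libraries.

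No gene passed the threshold. Of 15428 genes tested with limma, 0 were called (0%), and edgeR on the recovered reads also called 0. At an unadjusted p under 0.05, limma had 963 genes (6.24%), of which 498 were higher with Cas9 (3.23%) and 465 lower (3.01%). The libraries of the groups did not overlap for 722 genes (4.68%), 406 of them higher (2.63%) and 316 lower (2.05%). DESeq2 on the same reads called 14 of 8841 genes with an adjusted p (0.158%), 13 of them higher with Cas9 (0.147%) and 1 lower (0.0113%). Those 14 were Qk, Egln1, Cul3, Tada2b, Gm11973, AI462493, Khdrbs3, Edf1, Fam120a, Hist1h1c, Ppp1r3c, Pmepa1 and Mark1, which were higher, and Fbxo42, which was lower. Without Cas9 replicate 3, limma called 2 genes, Egln1 and Qk (adjusted p = 0.046 for each).

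Among the differences of smallest p was that of Egln1, which encodes the prolyl hydroxylase PHD2 that marks hypoxia-inducible factor (HIF) for destruction when oxygen is present. Another was that of the chromatin gene Hist1h1c. HIF binds the letters ACGTG or GCGTG, and Egln1 is itself a known HIF target. Replication-linked H1 histone genes carry the H1 box, AAACACA, and a CCAAT element upstream of their start. Sequence upstream of each start is shown because it holds such letters, which are in capitals, from RefSeq on GRCm38.p6, in the direction of transcription. It spans 250 bases before the RefSeq start for Hist1h1c, and for Egln1 only the 180 of them that lie upstream of the GENCODE span of the gene, which begins further upstream than in RefSeq.
Egln1 chr8:124949325-124949504, minus strand: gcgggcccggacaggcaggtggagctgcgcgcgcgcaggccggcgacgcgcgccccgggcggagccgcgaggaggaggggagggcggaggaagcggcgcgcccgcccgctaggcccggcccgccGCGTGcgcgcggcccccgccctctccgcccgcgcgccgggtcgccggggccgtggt
Hist1h1c chr13:23738557-23738806, plus strand: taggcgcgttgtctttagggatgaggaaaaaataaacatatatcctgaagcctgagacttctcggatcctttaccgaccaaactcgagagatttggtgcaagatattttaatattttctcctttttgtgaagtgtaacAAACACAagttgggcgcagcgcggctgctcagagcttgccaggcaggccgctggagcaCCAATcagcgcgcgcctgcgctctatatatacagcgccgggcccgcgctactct

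In Egln1 the letters GCGTG stood 126 bases before the RefSeq start. GCGTG or ACGTG, on either strand, occurred in 38.6% of 27025 promoters of 250 bases. For Egln1 only 180 bases were searched, so that share belongs to a longer stretch. In Hist1h1c, listed in RefSeq as H1f2, AAACACA stood 112 bases and CCAAT 54 bases before the start, and on either strand they occurred in 6.22% and 34.5% of promoters. These matches describe the letters and show no binding.

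Egln1 (chr8:124908587-124949324, GENCODE positions on GRCm38 here and below) was at 342, 410, 480 and 442 in GFP replicates 1 to 4 and at 771, 1086, 549 and 1117 in the Cas9 replicates. All Cas9 libraries lay above all GFP libraries, with Cas9 replicate 3 nearest to them. The difference was 1.02 ± 0.20 (limma 95% interval 0.60 to 1.45, adjusted p = 0.561). DESeq2 gave an adjusted p of 0.000142.
Cul3 (chr1:80264923-80340480), the scaffold of a family of ubiquitin ligases, was at 443, 575, 621 and 743 with GFP and 889, 1022, 906 and 1017 with Cas9. The groups did not overlap, and the difference was 0.71 ± 0.13 (limma adjusted p = 0.527). Among the Cas9 libraries the SD was 70.6 for Cul3 and 271 for Egln1, and among the GFP libraries it was 124 and 58.6.

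A pair of RNA-binding proteins of the STAR family, which regulate splicing, stood next. Qk (quaking, chr17:10202601-10319854), best known from oligodendrocytes and astrocytes, was at 1349, 1831, 2150 and 2157 with GFP and at 3808, 4517, 2450 and 4073 with Cas9. Its difference was 0.98 ± 0.19 (limma adjusted p = 0.561), and Cas9 replicate 3 again lay lowest of its group.
Khdrbs3 (chr15:68928420-69101211), also named SLM2 and expressed in neurons, was at 70.5, 102, 112 and 106 with GFP and at 181, 485, 196 and 391.7 with Cas9. The lowest Cas9 library stood above the highest GFP library, and Cas9 replicates 2 and 4 stood far above replicates 1 and 3. The difference, 1.57 ± 0.31, was the largest among the 10 genes of smallest p that were higher (limma adjusted p = 0.561). Of the 34 splicing regulators tested, Qk and Khdrbs3 among them, 16 were higher and 18 lower, with a median of −0.01 against −0.01 over all genes. Celf5, a CELF family splicing regulator, was lower by 0.25 without overlap between the groups, from 582 to 674 with GFP to 465 to 569 with Cas9 (limma adjusted p = 0.781).

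Among genes of transcription and chromatin, Tada2b (chr5:36473670-36484285), a subunit of the SAGA histone acetyltransferase complex, was at 80.0, 117, 130 and 132 with GFP and 202, 378, 157 and 340 with Cas9. The groups did not overlap, and replicates 2 and 4 were again the high Cas9 libraries. Its difference was 1.16 ± 0.24 (limma adjusted p = 0.614). The annotated span of Tada2b overlaps Grpel1 on the opposite strand.
Edf1, a transcriptional coactivator that also binds collided ribosomes, was at 668, 690, 675 and 722 with GFP and 828, 905, 902 and 833 with Cas9. This was a small and even difference of 0.33 ± 0.07 (limma adjusted p = 0.561).
Hist1h1c (chr13:23738808-23740367), the linker histone H1.2, was at 210, 225, 273 and 198 with GFP and 300, 382, 424 and 329 with Cas9. Its groups did not overlap, and the difference was 0.66 ± 0.14 (limma adjusted p = 0.674). Of the 16 histone genes tested, 14 were higher and 2 lower, with a median of 0.19. At an unadjusted p under 0.05, 5 were higher and 1 lower, and 3 were higher without overlap. Of all genes, 3.23% were higher and 3.01% lower at that p, and 2.63% were higher without overlap. Hist1h2bc was at 287 to 436 with GFP and 444 to 707 with Cas9, higher by 0.56 ± 0.18. Hist1h2be, at 80.0 to 119 and 108 to 152, overlapped between the groups. Histone genes are near-identical copies, so reads may be split between them.

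The other genes higher with Cas9 by the smallest p were Ppp1r3c, Ahsa1 and Pde6d. Ppp1r3c, a targeting subunit of protein phosphatase 1 that promotes glycogen synthesis, was at 232, 288, 290 and 294 with GFP and 357, 393, 365 and 381 with Cas9. The difference was 0.44 ± 0.09 without overlap (limma adjusted p = 0.637). Ahsa1, which activates the ATPase of the chaperone HSP90, was at 633 to 680 with GFP and 746 to 810 with Cas9, higher by 0.27 ± 0.06. Pde6d, a carrier of prenylated proteins, was at 306 to 380 with GFP and 424 to 443 with Cas9, higher by 0.35 ± 0.08. For both the groups did not overlap and the limma adjusted p was 0.678.

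Of the other genes DESeq2 called, Fam120a, Pmepa1 and Mark1 overlapped between the groups, each by a narrow margin between Cas9 replicate 3 and GFP replicate 4. These values were taken up because of that call. Fam120a, an RNA-binding protein, was at 356, 325, 381 and 465 with GFP and at 560, 898, 461 and 809 with Cas9. Mark1, a kinase of microtubule-associated proteins, was at 581, 622, 717 and 736 and at 854, 1084, 734 and 1068. Gm11973, which GENCODE gives as an antisense RNA, was higher by 1.15 ± 0.25. Its span overlaps the protein-coding gene Purb on the opposite strand, so some reads counted for it may come from Purb. AI462493 had the smallest unadjusted limma p of all genes, with 162 to 168 in the GFP libraries and 225 to 253 in the Cas9 libraries, higher by 0.53 ± 0.09. It is named Uqcc3 in GENCODE and encodes an assembly factor of respiratory complex III; it stood outside the 10 genes named because the table gives it by a numbered symbol.

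**Figure D1:**
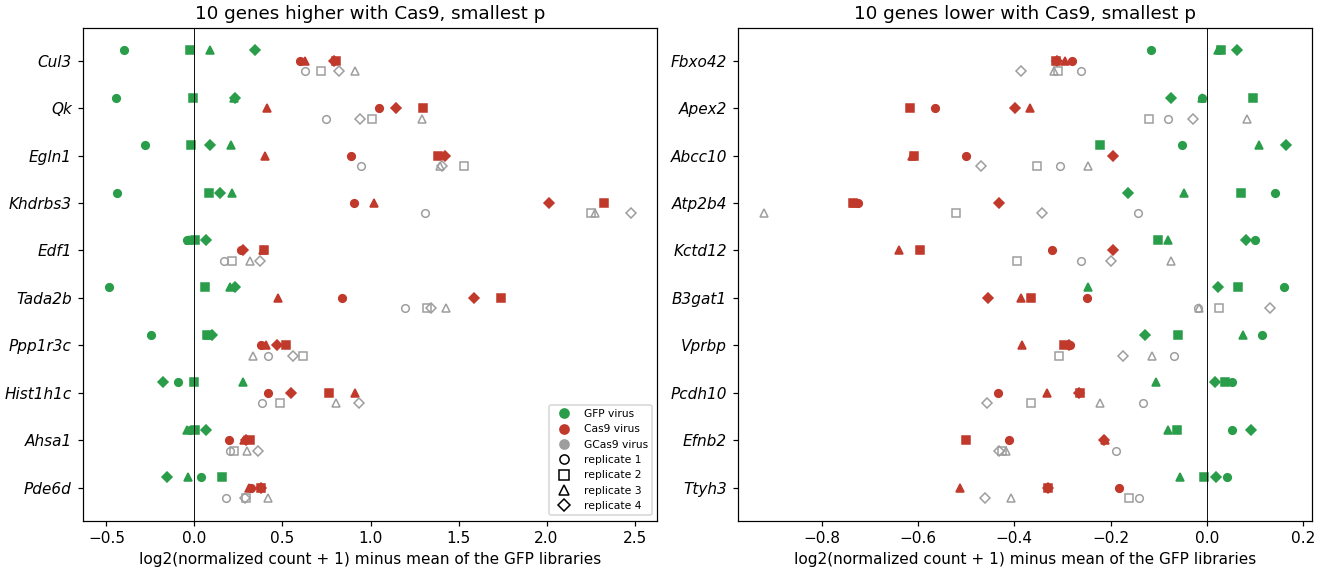
Level of the 10 genes of smallest p in each direction in all 12 libraries of the second set, as log2(normalized count + 1) minus the mean of the 4 GFP libraries (horizontal axis). Each marker is a library, its shape the replicate number and its colour the virus; for Khdrbs3, Egln1 and Tada2b, Cas9 replicates 2 and 4 lie to the right of replicates 1 and 3, and for Abcc10 Cas9 replicate 4 lies within the GFP range.

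The GCas9 libraries were compared with the same GFP libraries, so the differences share their controls and are given side by side only. GCas9 minus GFP was 1.32 for Egln1, 2.08 for Khdrbs3, 1.00 for Qk, 1.32 for Tada2b and 0.77 for Cul3. None of these passed the threshold (limma adjusted p = 0.0653 for Egln1 and for Khdrbs3, and 0.110 to 0.155 for the other genes). GCas9 minus Cas9, the direct comparison of the nucleases, was 0.30 ± 0.20 for Egln1 and 0.51 ± 0.31 for Khdrbs3 without pairing (limma adjusted p = 0.995 for each). With the replicate number as a block in these 8 libraries, the SE was 0.155 for Egln1 and 0.182 for Khdrbs3 (limma adjusted p = 0.992 for each). Over all genes, limma called 0 in GCas9 against GFP (0%) and 0 in GCas9 against Cas9 (0%), with 6.48% and 3.84% of genes at an unadjusted p under 0.05. In GFP replicate 1, Cul3, Qk, Egln1, Khdrbs3 and Tada2b were each at the lowest level of the 12 libraries. Without that library their differences ranged from 0.57 for Cul3 to 1.42 for Khdrbs3.

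The 10 genes lower with Cas9 by the smallest p differed by −0.66 to −0.30, against 0.27 to 1.57 in the 10 that were higher. Of the 10 lower genes, 9 did not overlap between the groups, against 2.05% of all genes lower without overlap. Choosing genes by p from the same libraries favours such separation. Fbxo42 (chr4:141147913-141204062), an F-box subunit of ubiquitin ligases, was at 547, 605, 602 and 619 with GFP and 488, 477, 483 and 478 with Cas9. Its Cas9 libraries were almost level, and the difference was −0.30 ± 0.06 (limma adjusted p = 0.637, DESeq2 adjusted p = 0.0488). Vprbp, also named Dcaf1, a substrate receptor of another ubiquitin ligase, was at 460 to 545 with GFP and 386 to 413 with Cas9. Its annotated span overlaps Manf on the opposite strand, and Manf was higher by 0.23 ± 0.10.
Apex2 (chrX:150519519-150589868), an endonuclease of base excision repair, was at 100, 108, 100 and 95.5 with GFP and at 67.8, 65.3, 77.9 and 76.1 with Cas9. All Cas9 libraries lay below all GFP and GCas9 libraries, the latter at 92.6 to 107. Its difference was −0.49 ± 0.11 (limma adjusted p = 0.678). Its span overlaps Alas2 on the opposite strand, and whether reads were counted by strand is not given in the sources used here.

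Atp2b4, a calcium pump of the plasma membrane, was at 128, 122, 112 and 104 with GFP and at 70, 69.5, 69.6 and 86 with Cas9. Its difference of −0.66 ± 0.16 was the largest of the 10 (limma adjusted p = 0.678). Kctd12, an auxiliary subunit of GABA-B receptors, was at 400 to 460 with GFP and 275 to 375 with Cas9, a difference of −0.44 ± 0.11.
Pcdh10, an adhesion protein, and Efnb2, a ligand of Eph receptors, differed by −0.32 ± 0.08 and −0.33 ± 0.09. The chloride channel Ttyh3 differed by −0.34 ± 0.09. B3gat1, which makes the HNK-1 carbohydrate of neural adhesion molecules, differed by −0.36 ± 0.09. Abcc10, a drug transporter, differed by −0.48 ± 0.12, and Cas9 replicate 4 (243) lay within its GFP range of 239 to 312. The limma adjusted p of these genes was 0.678 to 0.681. The spans of B3gat1 and Abcc10 overlap Glb1l2 and Dlk2 on the opposite strand.

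Immune transcripts are the genes most directly tied to a reaction against a foreign protein or an injected virus. Across 9 immune lists, 71 of 166 list entries tested were higher with Cas9, against 48.7% of all genes. Of the 166, 2 passed an unadjusted p under 0.05, against 6.24% of all genes, and 0 were called. The libraries of each group differed widely instead. The mean log2 level of the 40 interferon-stimulated genes was 8.80, 8.22, 8.47 and 5.93 in GFP replicates 1 to 4 and 6.91, 8.60, 8.84 and 6.24 in the Cas9 replicates. The groups overlapped over almost their whole range, with low libraries in each. Isg15, an interferon-induced ubiquitin-like protein, was at 627, 452, 491 and 41.9 with GFP and at 102, 717, 951 and 55.3 with Cas9. Its difference was −0.15 with a limma 95% interval of −2.42 to 2.11, so differences of several-fold either way were within the spread. In the interferon list 7 genes were higher and 33 lower, with a median of −0.19. That median was −0.86 without GFP replicate 4, −0.63 without Cas9 replicate 3 and −0.54 without Cas9 replicate 2. It was above 0 without Cas9 replicate 4 (0.23), GFP replicate 1 (0.10), Cas9 replicate 1 (0.04) or GFP replicate 3 (0.01).

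Antigen presentation varied in the same wide manner. In the class I list, 11 of 20 genes were higher and 9 lower, with a median of 0.01. It was −0.49 without GFP replicate 4, −0.23 without Cas9 replicate 2 and −0.22 without Cas9 replicate 3. It was 0.27 without Cas9 replicate 4, 0.25 without GFP replicate 1, 0.17 without Cas9 replicate 1 and 0.16 without GFP replicate 3. H2-K1, a class I heavy chain, was at 4160, 2559, 3997 and 820 with GFP and 2053, 4068, 3379 and 1568 with Cas9. B2m, its light chain, was at 5488, 3059, 4547 and 1440 and at 2951, 5736, 5078 and 2315. In both genes GFP replicate 4 was the lowest of the 8 libraries. In the class II list, which marks microglia, macrophages and B cells, 4 of 11 genes were higher and 7 lower, with a median of −0.06 that ranged from −0.43 without GFP replicate 4 to 0.26 without GFP replicate 1, and was also above 0 without GFP replicate 3 (0.17) or Cas9 replicate 4 (0.06). Cd74, the invariant chain, was at 3580, 1246, 3065 and 592 with GFP and at 1635, 2410, 1371 and 1078 with Cas9. Its difference was −0.12 (95% interval −1.63 to 1.39).

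The mean log2 level of the T and natural killer cell list was 3.17 to 5.50 with GFP and 4.42 to 5.30 with Cas9, and that of the B and plasma cell list 5.64 to 7.75 and 6.56 to 8.03. In the T and natural killer cell list 11 of 15 genes were higher and 4 lower, and in the B and plasma cell list 11 of 18 and 7. The first list holds 29 genes, and those not tested lay below the mean of 10. Among genes with a mean of at least 50 the T cell median was −0.01 and the B cell median −0.07. With DESeq2 both medians were 0.12. The T cell median of 0.23 was −0.11 without GFP replicate 4 and 0.08 without Cas9 replicate 2, but 0.56 without GFP replicate 3, 0.51 without GFP replicate 1 and 0.39 without Cas9 replicate 1. The B cell median of 0.19 was −0.07 without GFP replicate 4 and −0.03 without Cas9 replicate 2, but 0.53 without GFP replicate 1, 0.41 without Cas9 replicate 3 and 0.29 without Cas9 replicate 4. Cd8a, a subunit of the cytotoxic T cell coreceptor, was at 12.6, 0.86, 9.53 and 0 with GFP and at 0, 4.17, 3.54 and 0 with Cas9. Ms4a1, a surface protein of B cells, was at 16.8, 1.71, 8.58 and 0.91 with GFP and at 22.6, 36.1, 2.36 and 24.6 with Cas9. The groups overlapped for both genes.

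**Figure D2:**
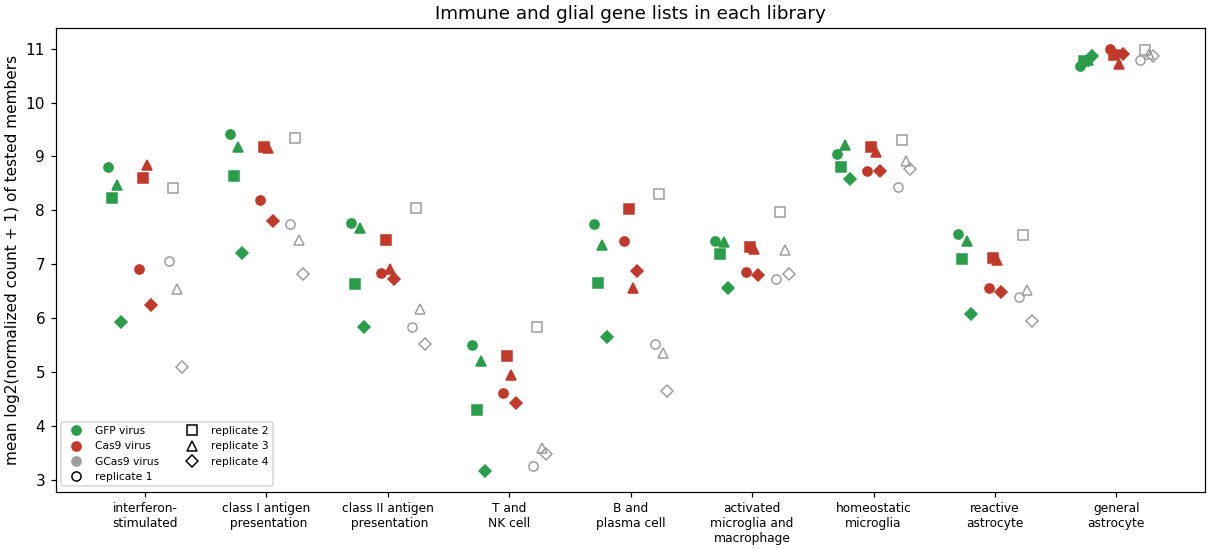
Mean log2(normalized count + 1) of the tested members of 9 immune and glial gene lists (vertical axis) in each of the 12 libraries, coloured by virus and shaped by replicate number. GFP replicate 4 is lowest of the GFP libraries in the interferon list (5.93) and the class I list (7.20), and the range of the Cas9 libraries overlaps that of the GFP libraries in every list shown.

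Among microglial genes, 10 of 22 homeostatic markers were higher and 12 lower, and 14 of 24 activation markers were higher and 10 lower. The homeostatic median of −0.02 was −0.11 without GFP replicate 4 and without Cas9 replicate 2, and 0.10 without GFP replicate 3. The activation median of 0.04 was −0.11 without GFP replicate 4 and 0.09 without GFP replicate 3 or Cas9 replicate 4. Gpnmb, a glycoprotein of phagocytic microglia and macrophages, was at 93.7, 94.9, 104 and 102 with GFP and 72.3, 98.7, 55.5 and 54.0 with Cas9. The groups overlapped through Cas9 replicate 2, and the difference was −0.53 ± 0.35. Clec7a, a receptor of activated microglia, was at 14.5 to 37.2 with GFP and 9.03 to 21.2 with Cas9. The nucleic acid sensors gave 4 of 16 genes higher and 12 lower. In that list Irf3, the transcription factor downstream of DNA and RNA sensing, was higher by 0.30 ± 0.11, at 106 to 132 with GFP and 138 to 157 with Cas9, while Adar, which edits double-stranded RNA, was lower by 0.23 with overlapping groups.

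Astrocyte genes were divided by kind. Of 18 general astrocyte genes 14 were higher and 4 lower, with a median of 0.08. Apoe, the main lipid carrier of the brain, was at 20920, 23250, 23690 and 21840 with GFP and at 28360, 27710, 24450 and 26280 with Cas9, higher by 0.25 ± 0.08 without overlap. Of 27 reactive astrocyte genes 9 were higher and 18 lower, with a median of −0.15 that was −0.47 without GFP replicate 4, −0.27 without Cas9 replicate 2, 0.01 without GFP replicate 1 and 0.00 without GFP replicate 3. Gfap, the intermediate filament that marks reactive astrocytes, was at 7210, 5135, 7124 and 2903 with GFP and at 4777, 6404, 5130 and 3274 with Cas9. Its groups overlapped, and the difference was −0.14 ± 0.45. Hspb1, a small heat shock protein, was among the 9 genes of that list that were higher. It was at 32.5 to 49.5 with GFP and 56.5 to 63.9 with Cas9, higher by 0.59 ± 0.22 without overlap. None of these genes passed the threshold (limma adjusted p = 0.781 for Apoe and Hspb1, 0.983 for Gfap).

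Of 20 oligodendrocyte and myelin genes 17 were higher and 3 lower, with a median of 0.09, and 0 passed an unadjusted p under 0.05. The median was 0.03 without Cas9 replicate 1 and 0.04 after quantile normalization. Mbp, myelin basic protein, was at 53850, 64330, 55830 and 62840 with GFP and at 79780, 64320, 54600 and 73760 with Cas9. Cas9 replicates 1 and 4 stood above the GFP libraries and replicates 2 and 3 within them. Gpr17, a receptor of oligodendrocyte precursors, was at 344 to 447 with GFP and 295 to 407 with Cas9. In bulk tissue, fewer cells of a type and less RNA per cell cannot be told apart.

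Neuronal identity genes showed small differences. Of 31 medium spiny neuron genes 16 were higher and 15 lower, with a median of 0.00. Drd1a, the dopamine receptor of the direct pathway, was at 4372, 4412, 4380 and 4574 with GFP and at 4041, 4306, 3965 and 4177 with Cas9. The groups did not overlap, but the difference was only −0.11 ± 0.07 (limma adjusted p = 0.826). Penk, the enkephalin precursor of the indirect pathway, was at 19440 to 25730 with GFP and 23050 to 30970 with Cas9, and Drd2 of the same pathway at 1626 to 1805 and 1382 to 1955. Of 18 general neuronal genes 9 were higher and 9 lower, and Rbfox3 (NeuN) differed by 0.06 (95% interval −0.13 to 0.26).

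The synaptic lists leaned toward lower levels. In synaptic vesicle release 4 of 28 genes were higher and 24 lower, in GABA synthesis and receptors 4 of 22 and 18, and in glutamate receptors and postsynapse 7 of 29 and 22. Over all genes 48.7% were higher. The medians were near −0.07 for the first 2 and −0.08 for the third. At an unadjusted p under 0.05, 1, 2 and 1 members were lower, against 3.01% of all genes. Slc32a1, the vesicular GABA transporter, was at 639, 740, 626 and 670 with GFP and at 648, 456, 490 and 596 with Cas9, a difference of −0.30 ± 0.11. Cas9 replicate 1 lay within the GFP range and the others below it. Cplx2, a complexin of the release machinery, was at 2917 to 3565 with GFP and 2250 to 3244 with Cas9.

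Genes of the response to DNA breaks are of direct interest for a nuclease. Of 41 double-strand break repair genes 24 were higher and 17 lower, with a median of 0.03, and 0 passed an unadjusted p under 0.05. Trp53bp1, which steers breaks toward end joining, was at 1216, 1306, 1162 and 1119 with GFP and at 1124, 1140, 960 and 1072 with Cas9, with overlap. Of 30 p53 target genes 16 were higher and 14 lower (median 0.02), 2 of them at an unadjusted p under 0.05, a share near the 6.24% of all genes. Those 2 were Plk3, a stress kinase, at 98.3 to 108 with GFP and 119 to 134 with Cas9, and Ephx1, an epoxide hydrolase, at 301 to 334 and 340 to 489. Cdkn1a (p21), the canonical p53 target, was at 288, 183, 190 and 175 with GFP and at 183, 179, 212 and 217 with Cas9, and the groups overlapped (difference −0.05 ± 0.18). Trp53 itself was at 256 to 297 with GFP and 257 to 326 with Cas9.

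Of 30 cell cycle genes 8 were higher and 22 lower, with a median of −0.21. It was −0.04 without Cas9 replicate 1 and −0.11 without GFP replicate 3, but −0.33 without GFP replicate 4 and −0.31 without Cas9 replicate 3. Among the libraries with high Xist alone it was 0.05. Mcm7, a subunit of the replicative helicase, was at 257, 272, 320 and 255 with GFP and at 218, 242, 223 and 233 with Cas9, lower by 0.26 ± 0.10 without overlap (limma adjusted p = 0.781). Gmnn, which encodes Geminin, an inhibitor of replication licensing, was at 50.5, 41.9, 48.6 and 51.0 with GFP and at 79.0, 58.4, 56.6 and 49.1 with Cas9. Its groups overlapped through Cas9 replicate 4 (difference 0.32 ± 0.17).

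Of 41 genes of the HIF pathway, Egln1 among them, 18 were higher and 23 lower, with a median of −0.05. At an unadjusted p under 0.05 only Egln1 was higher and 4 genes were lower, against 3.23% and 3.01% of all genes. Arnt2, a dimer partner of HIF proteins in neurons, was at 1753, 1833, 1863 and 1947 with GFP and at 1611, 1391, 1375 and 1628 with Cas9. All Cas9 libraries lay below the GFP libraries, with a difference of −0.30 ± 0.10 (limma adjusted p = 0.781). Adm, the peptide adrenomedullin and a HIF target, was at 15.2 to 23.7 with GFP and 6.14 to 18.1 with Cas9. In protein folding, 11 of 25 genes of the unfolded protein response were higher and 14 lower. Manf, a secreted protein of that response, was at 213 to 263 with GFP and 254 to 306 with Cas9. Of 26 cytosolic chaperones 21 were higher and 5 lower, with a median of 0.05. In cholesterol synthesis 15 of 23 genes were higher and 8 lower, and Idi1, an isomerase of the pathway, was at 55.5 to 69.5 with GFP and 75.1 to 104 with Cas9.

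Among lists of more than 20 tested genes, the highest medians were those of the respiratory chain, which carries out oxidative phosphorylation, and of the ribosome. Of 74 nuclear genes of the respiratory chain 71 were higher with Cas9 and 3 lower, with a median of 0.21. At an unadjusted p under 0.05, 33 of the 74 were higher and 0 lower, and 37 were higher without overlap. Over all genes these shares were 3.23% higher, 3.01% lower and 2.63% higher without overlap. The mean log2 level of the list was 9.88, 9.83, 9.68 and 9.96 in the GFP replicates and 10.07, 10.04, 10.06 and 10.11 in the Cas9 replicates. The groups did not overlap, and the Cas9 libraries were closer together than the GFP libraries. The GCas9 libraries ran from 9.65 to 10.28, below and above both.

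Ndufa11, a subunit of complex I, was at 826, 874, 720 and 859 with GFP and at 1161, 983, 1113 and 986 with Cas9, higher by 0.37 ± 0.11. Uqcrq, a subunit of complex III, was at 979, 1040, 830 and 1052 with GFP and at 1334, 1216, 1356 and 1311 with Cas9, higher by 0.42 ± 0.13. Ndufb5, another subunit of complex I, was nearly level within GFP at 697 to 712 and stood at 796 to 898 with Cas9. The groups did not overlap for any of these 3 genes, which had the smallest p of the list, and none passed the threshold (limma adjusted p = 0.781). The 7 mitochondrially encoded genes tested were all higher, with a median of 0.30 and 0 at an unadjusted p under 0.05. Among them mt-Cytb, of complex III, was at 28770, 24350, 26910 and 38260 with GFP and at 37310, 33540, 34610 and 38970 with Cas9, where GFP replicate 4 lay within the Cas9 range.

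All 76 ribosomal protein genes tested were higher with Cas9, with a median of 0.22, 16 of them at an unadjusted p under 0.05 and 16 without overlap. Of all genes, 3.23% were higher at that p and 2.63% were higher without overlap. The mean log2 level of the list was 8.34, 8.34, 8.15 and 8.33 in the GFP replicates and 8.34, 8.60, 8.58 and 8.61 in the Cas9 replicates. Cas9 replicate 1 was level with the GFP libraries and the other 3 stood above them. Rps27a, which encodes ubiquitin fused to a ribosomal protein, was at 256, 232, 200 and 227 with GFP and at 286, 332, 322 and 345 with Cas9, higher by 0.49 ± 0.16. Rpl15 was at 400 to 408 with GFP and 461 to 502 with Cas9. Many ribosomal protein genes have near-identical processed copies, so their counts are uncertain. Of 31 proteasome subunits 25 were higher and 6 lower, with a median of 0.08. At an unadjusted p under 0.05, 5 subunits of the proteasome were higher, against 3.23% of all genes. Psmb3, of its core particle, was at 600 to 705 with GFP and 721 to 807 with Cas9.

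These lists hold short transcripts, with a median of 1186 nucleotides in the respiratory chain list and 1100 in the ribosomal list, and transcript length moved with the difference across all genes. With genes in 5 bins of equal size by length, in the shortest bin (39 to 1855 nucleotides) the median was 0.08 and 67.1% were higher with Cas9. In the longest bin (5211 nucleotides or more) the median was −0.05 and 35.3% were higher. Across the 15203 genes with a length, 98.5% of those tested, Spearman's rho of difference and length was −0.26, a description across genes that are not independent and share the 12 libraries. The median log2 deviation of the shortest minus the longest bin was −0.10 to −0.06 in the GFP libraries. In Cas9 replicates 1 to 4 it was −0.06, 0.03, 0.19 and 0.08, and in the GCas9 libraries −0.12 to 0.13.
With a length curve subtracted in each library, the median was 0.15 in the respiratory chain list (70 of 74 higher), 0.16 in the ribosomal list (75 of 76) and 0.23 in the mitochondrially encoded list. The proteasome median was then 0.03, and the synaptic medians −0.04 for vesicle release, −0.03 for GABA and −0.02 for glutamate. The length adjustment was chosen after the data were seen.

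**Figure D3:**
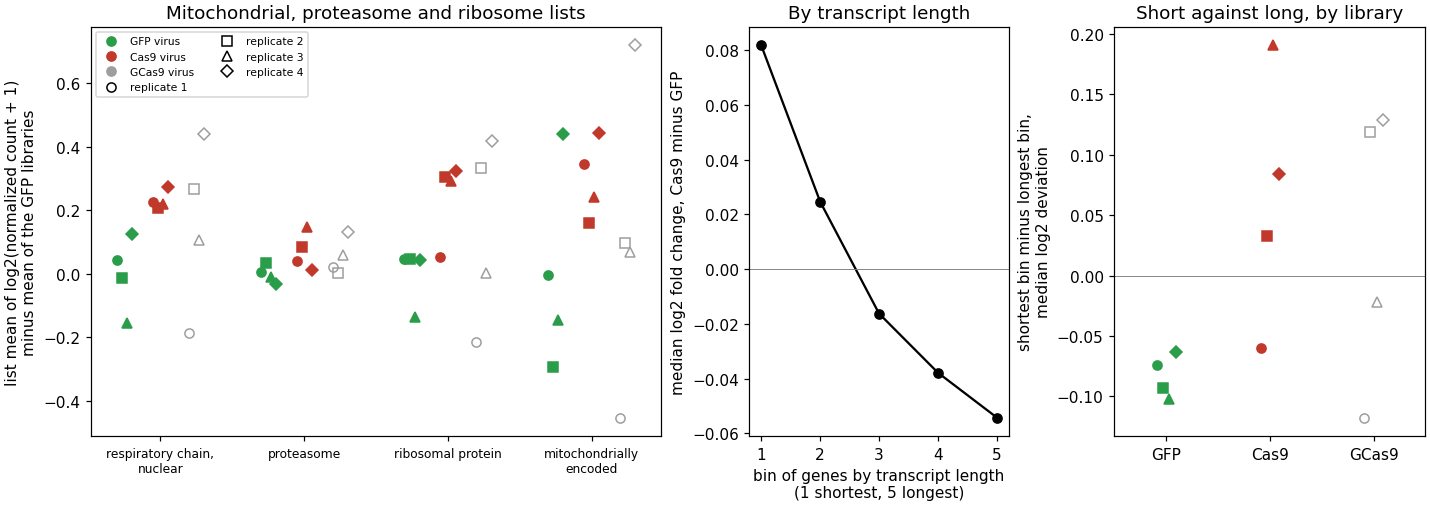
Left, mean log2(normalized count + 1) of 4 gene lists in each of the 12 libraries, minus the mean of the GFP libraries, coloured by virus and shaped by replicate number. Middle, median log2 fold change between Cas9 and GFP in 5 bins of genes by transcript length, falling from 0.08 to −0.05, and right, the median log2 deviation of the shortest minus the longest bin in each library, where the 4 GFP libraries lie below 0 and 3 of 4 Cas9 libraries above it.

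Genes of the choroid plexus and ependyma, which line the ventricle beside the striatum, had the highest median of the lists, 0.45 with 10 of 14 higher and 4 lower. Part of this median rested on Cas9 replicate 1. Ttr, the transthyretin of choroid plexus, was at 135, 139, 55.3 and 146 with GFP and at 9771, 495, 117 and 92.1 with Cas9. Kl, Folr1 and Kcnj13, other markers of that tissue, were at 451, 128 and 193 in the same library and at no more than 52.2, 12.8 and 9.73 in the other 7. The summed level of the list was 3620 to 4390 with GFP and 4212 to 21706 with Cas9, and without Cas9 replicate 1 its median was 0.22. Red cell genes were higher in all 5 cases, with sums of 1340 to 1851 with GFP and 1251 to 3472 with Cas9, and their median of 0.44 was 0.18 without Cas9 replicate 1. Of 18 endothelial genes 13 were higher and 5 lower, with a median of 0.11 that was 0.04 without GFP replicate 1, 0.06 with reads thinned to equal depth and 0.01 among the libraries with high Xist alone. Slco1a4, an anion transporter of brain endothelium, was at 523 to 663 with GFP and 650 to 716 with Cas9.

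**Figure D4:**
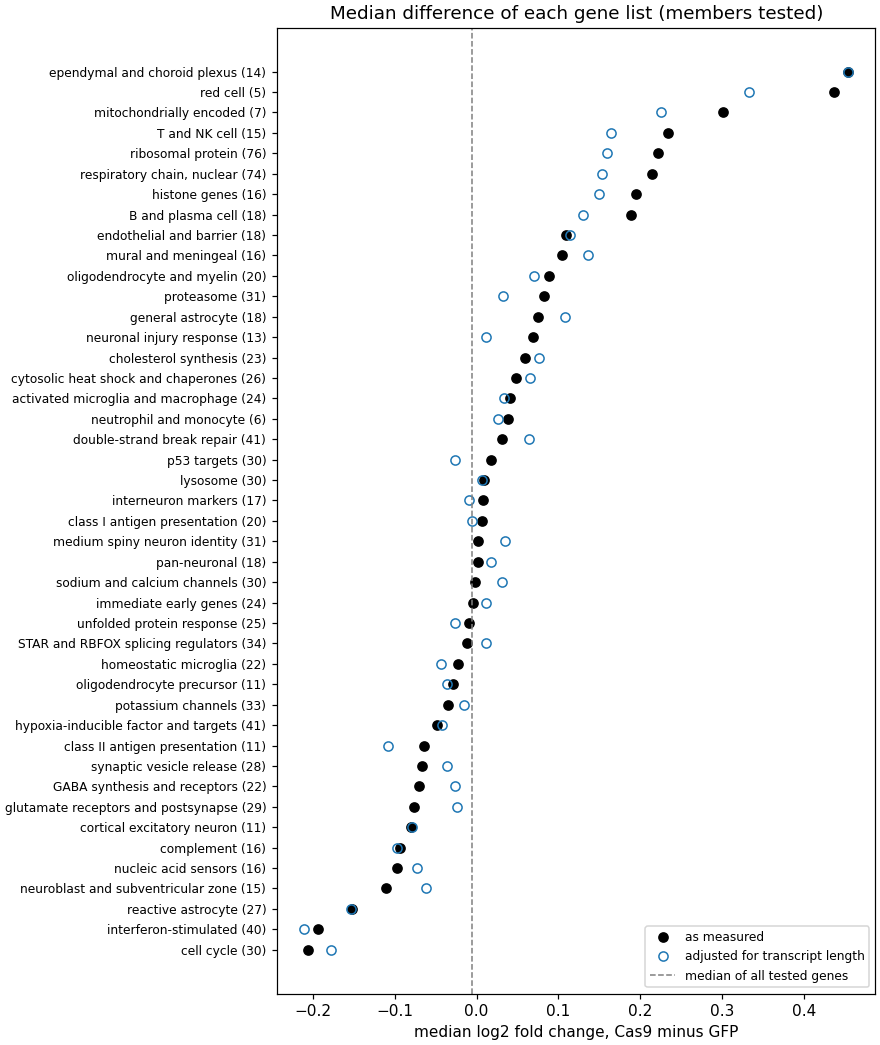
Median log2 fold change between Cas9 and GFP of the tested members of 44 gene lists (filled points), with the number tested in brackets, and the same after subtraction of the length curve (open points); the dashed line is the median of all 15428 genes. Medians run from −0.21 (cell cycle) to 0.45 (ependymal and choroid plexus), and the open points of the respiratory chain (0.15) and ribosomal protein (0.16) lists lie nearer to the line than the filled ones.

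With the Xist class of the libraries as a factor in the fit, limma called 0 genes and the medians of the respiratory chain and ribosomal lists were 0.21 and 0.19. Among the libraries with high Xist alone (2 GFP against 3 Cas9) they were 0.28 and 0.34, and limma again called 0 genes, with 429 higher and 724 lower at an unadjusted p under 0.05. In the same libraries the interferon list had a median of 0.71 and the class I list one of 0.56, so the sign of the interferon median depended on which libraries were compared. These fits by Xist class were also chosen after the data were seen.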

How the data were processed

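Striatal RNA was made into cDNA with a SMARTer kit and into libraries with a Nextera XT kit, per the labels' protocols, which means amplification before sequencing, so that counting error understates error. Per the submitters' processing notes, the tools were DESeq2, HTSeq, SAMtools, STAR 2.5.2b and R 3.3.3, with the build GRCm38.p3 and no roles given. The table deposited by the authors holds a signal for 41128 gene symbols: read counts divided by a DESeq2 size factor per library. In the second set 100% of values above 0 were whole reads within 0.001 reads. The sets were scaled apart, so levels were compared within the second set.

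The fit used limma 3.58.1 under R 4.3.3 on log2(normalized count + 1) (mean trend, 3 groups, 12 libraries, two-sided), for 15428 genes with a mean of at least 10. edgeR 4.0.16 and DESeq2 1.42.0 were run on the recovered reads. On simulated counts for Cas9 against GFP over 15428 genes, limma recovered 90% of 100 genes changed by 1 on the log2 scale and 98% of 100 changed by 2, with 10 false calls. The counts were drawn independently for each gene and library, and 200 genes were changed at once, which eases the adjusted threshold. The shares therefore do not give the power of the real comparison. Genes named are the 10 of smallest p in each direction with a mean of at least 50 (numbered symbols left out, AI462493 among them), the 3 members of smallest p of each of 44 lists, and a fixed set. Values are given for those a sentence needed, and for genes DESeq2 called and further choroid plexus and sex-linked markers, chosen after their values were seen. Deviations from the group means correlated at 0.12 to 0.33 between all 4 same-numbered Cas9 and GCas9 libraries, so their numbers were taken to pair them, though the labels name no shared source. Members and lists were chosen with earlier results of these data known. Positions and lengths are from GENCODE M21 on GRCm38, matched by symbol.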

Additional observations from a re-analysis of the deposited data

Results flagged for a closer look

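Dixon's 95% limit was applied to 286 groups of 4 gene or list values. In 20 of them a library was set apart from the other 3 by a larger gap. Chance alone gives about 1 in 20 for a single group. The groups are not independent, since lists hold checked genes, and Kl and Folr1 were added after their values were seen. The count is therefore no test against that rate. In Cas9 replicate 1 the choroid plexus genes Ttr (9771), Kl (450.6), Folr1 (127.6) and Kcnj13 (193.1) stood above the other Cas9 libraries, as did the ependymal and choroid plexus list (mean log2 level 7.385). In the same library the ribosomal protein list (8.343) and the neuronal injury list (8.093) stood below the others, and Adora2a, the adenosine receptor of indirect pathway neurons, stood above them (4501). Cas9 replicate 3 was apart in Vprbp (386.0) and Pmepa1 (650.3), which were low there, and in Trp53 (325.8), which was high. Cas9 replicate 4 was high in Atp2b4 (85.95) and low in Dlg3 (1406).

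Among the GFP libraries, replicate 1 was low in Ppp1r3c (231.5) and Rps9 (498.8) and high in Cdkn1a (288.4). GFP replicate 2 was high in Psmd8 (812.3), replicate 3 was low in Ttr (55.28) and in the ribosomal protein list (8.154), and replicate 4 was high in Ppp1r1b (28190).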

How the results depend on the processing

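Over 23 alternatives, the count of genes past the threshold differed from 0 under 2. DESeq2 called 13 genes higher and 1 lower, and leaving out 1 library in turn gave 0 to 2 higher and 0 to 0 lower. The cause was not tested. None of the 20 genes of smallest p changed sign under any alternative. These genes were chosen by p from the same libraries, so a kept sign was largely set by that choice. Of the 91 genes followed across the alternatives, 16 changed sign under at least 1. With high-Xist libraries alone the difference was −0.036 for Ppp1r1b, 0.064 for Gfap, 0.18 for Cd74, 1.22 for Isg15, 0.29 for Ptprc and 0.15 for Cdkn1a. edgeR and DESeq2 gave −0.27 and −0.27 for Serpina3n, −0.29 and −0.29 for H2-Aa, −0.061 and −0.059 for H2-K1, and 0.18 and 0.18 for Isg15. H2-Aa was at −0.00365 after quantile normalization and −0.061 with the Xist class as a factor. Leaving out 1 library in turn moved the difference from −0.0122 to 0.4251 for Aif1, −0.0454 to 0.1393 for Aqp4, −0.1757 to 0.4676 for B2m, −0.6217 to 0.2428 for Cd74, −0.1269 to 0.113 for Cdkn1a, −0.1393 to 0.0272 for Drd2 and −0.4298 to 0.0361 for Gfap. It moved it from −0.4799 to 0.38 for H2-Aa, −0.4366 to 0.344 for H2-K1, −1.0508 to 0.5675 for Isg15, −0.0613 to 0.5007 for Lyz2, −0.0564 to 0.2919 for Psme2, −0.5118 to 0.1761 for Ptprc, −0.4718 to 0.6738 for Serpina3n and −0.0409 to 0.0886 for Trp53. Of 44 list medians, 24 changed sign with at least 1 library left out. Genes lower at an unadjusted p under 0.05 numbered 810 without Cas9 replicate 1, 302 after the length adjustment and 724 with high-Xist libraries alone, against 465. With the replicate number as a block, limma called 0 genes higher and 0 lower, with the lowest adjusted p at 0.0776 for Khdrbs3. The numbers were not taken to pair GFP and Cas9 libraries, since correlations of same-numbered GFP and Cas9 libraries ran from −0.027 to 0.346 and 5 of 8 libraries correlated best with their own number. In GCas9 against Cas9 the block, in a fit of those 8 libraries chosen after the data were seen, called 0 genes, with 4.15% at an unadjusted p under 0.05 against 2.69% without it. Quantile normalization turned the median of the cortical neuron list from −0.08 to 0.13. Thinning reads to 6.09 M per library called 0 genes. The lower depth of every Cas9 library limits genes with few reads most, such as Cd8a.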
